A study of Mus musculus with 6 samples.

Results

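The 10 genes described here encode A20 (Tnfaip3), its binding partners of the TNIP family (Tnip1, Tnip2 and Tnip3), the cIAP ubiquitin ligases (Birc2 and Birc3), the adaptors Traf1 and Traf2, the deubiquitinase Cyld and the paracaspase Malt1. They were chosen by name as regulators of ubiquitin signalling, and are 10 of the 55536 annotated genes with a row in the deposited tables. All 10 passed the filter on low counts, which kept 15376 genes. RNA was measured by sequencing in RAW264.7, a virus-transformed mouse macrophage line, in 6 libraries of total RNA. The control group (Ctrl, 3 libraries) was given PBS and the other group (Ti, 3 libraries) titanium particles, of the kind that wear from metal implants. The labels give the background strain of both groups as C57BL/6. The sources used here state neither dose nor duration. The labels do not tie the replicates to separate cultures, and the p-values then cover only the spread among these libraries, which may be technical.

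When tumour necrosis factor or a Toll-like receptor ligand engages its receptor, TRAF adaptors and cIAP ligases build polyubiquitin chains on signalling proteins, and these chains recruit the kinases that activate NF-kB. A20 edits and removes such chains, the TNIP proteins bind both A20 and the chains, and CYLD cleaves them, so that these proteins act as brakes on inflammatory signalling. MALT1 is a protease of the CARD-BCL10-MALT1 (CBM) complex that can cut both A20 and CYLD, and several of these genes are themselves transcribed under NF-kB in macrophages.

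The rescaled counts of annotated genes summed to between 37685950 and 60242851 per library, and values are given as CPM, normalised counts scaled for library composition (TMM). A rescaled count of 3 equalled 0.0498 to 0.0796 CPM over unscaled library totals, for counting error only, and every one of the 10 genes lay far above that floor in each library. Marker sums are likewise CPM over unscaled library totals. All 12 macrophage markers examined were detected, with a summed level of 6331 to 7628 CPM in the Ctrl and 7259 to 9142 CPM in the Ti libraries. Summed markers reached at most 0.349 CPM for fibroblasts, 0.0531 CPM for B cells, 1.72 CPM for T cells, 0.557 CPM for neutrophils and 0.0216 CPM for epithelial cells, and Cd79a, Ms4a1, Col1a2, Elane and Epcam were at 0 in every library. The 6 osteoclast markers summed to 21.4 to 26.3 CPM in the Ctrl and 23.0 to 43.1 CPM in the Ti libraries, with Calcr at 0; their part in the results below was not tested.

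Among the 10 genes, Tnip1 was the one whose Ti libraries all lay above the Ctrl libraries, at about 1.88 times the Ctrl mean. The other 9 had overlapping groups and log2 fold changes between -0.35 and 0.49. None of the 10 passed an adjusted p of 0.05 over all genes (edgeR quasi-likelihood test, Benjamini-Hochberg), a threshold that 4 of the 15376 genes (0.026%) passed, and 0 with the replicate number as a block. At an unadjusted p under 0.05 there was 1 of the 10 (Tnip1), against 6.76% of all genes. DESeq2, an alternative test that called 1.91% of all genes, also called 1, again Tnip1. Voom with quality weights, which called 0.065%, called 0. At an unadjusted p under 0.05 by voom there were 2 of the 10, against 1575 of the 15376 genes. Groups without overlap and with Ti higher were found for 1 of the 10 genes and for 6.63% of all genes, and with Ti lower for 0 of the 10 and 6.71%. Of the 10, 7 had a positive and 3 a negative fold change, with a median log2 fold change of 0.12, against 0.0053 over all genes, of which 50.9% were positive. In bulk RNA, a change in the share of cells that express a gene and a change in RNA per cell cannot be told apart.

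**Figure D1:**
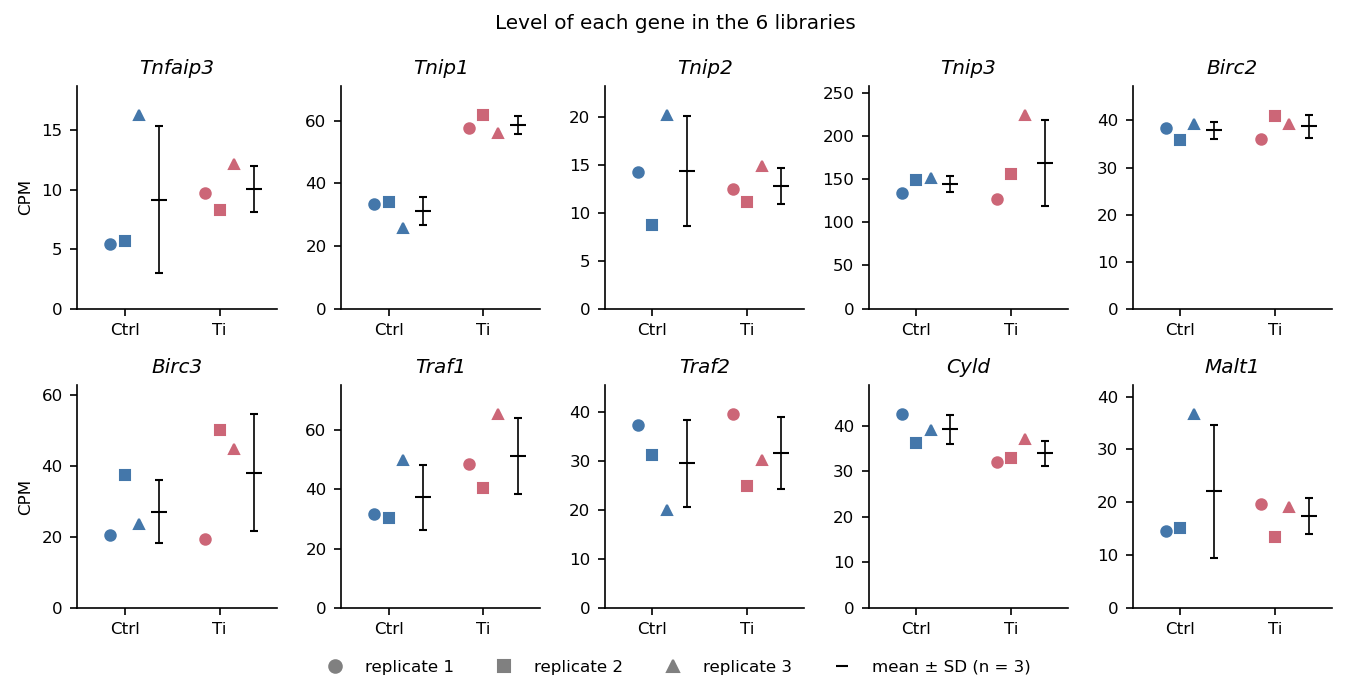
Level of each gene (CPM, linear axis from 0) in the 3 Ctrl libraries (blue) and 3 Ti libraries (red), with marker shape for the replicate number and black bars for the mean ± SD. Tnip1 is the panel in which the groups separate, at 25.9 to 34.0 CPM in Ctrl and 56.1 to 61.8 CPM in Ti, and Ctrl replicate 3 stands above the other Ctrl libraries for Tnfaip3, Tnip2, Traf1 and Malt1.

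Tnip1 (ENSMUSG00000020400, GRCm38 chr11:54910785-54962917, minus strand) encodes ABIN1, which tethers A20 to ubiquitin chains and restrains NF-kB activation and cell death. Its level was 33.3, 34.0 and 25.9 CPM in Ctrl replicates 1, 2 and 3 and 57.7, 61.8 and 56.1 CPM in Ti replicates 1, 2 and 3. The lowest Ti library thus lay well above the highest Ctrl library, and the spread within each group was small beside the gap. The means were 31.1 ± 4.51 and 58.5 ± 2.94 CPM (SD, n = 3 per group). The log2 fold change was 0.91 ± 0.14 (SE), with an unadjusted p of 0.000636 that ranked 46th of the 15376 genes and an edgeR adjusted p of 0.206. DESeq2 gave 0.92 with an adjusted p of 3.07e-05, and over 16 alternative analyses the log2 fold change stayed between 0.80 and 0.98 with adjusted p from 3.07e-05 to 0.523, of which DESeq2 was the 1 that passed. The call therefore depended on the test, while the direction was the same in all 16. The processed pseudogene Gm12230, annotated on the opposite strand within Tnip1, held 0 to 6 rescaled counts per library.

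The Tnip1 promoter is shown because Tnip1 was the gene with separated groups. It is the stretch of 250 bases before the RefSeq start site (GRCm38.p6, chr11:54962941-54963190, minus strand), written 5′ to 3′ along the gene. The capitals mark a run of overlapping matches to the kappaB consensus, the DNA element that NF-kB dimers bind, on both strands, starting 58 bases upstream of the start site.
Tnip1: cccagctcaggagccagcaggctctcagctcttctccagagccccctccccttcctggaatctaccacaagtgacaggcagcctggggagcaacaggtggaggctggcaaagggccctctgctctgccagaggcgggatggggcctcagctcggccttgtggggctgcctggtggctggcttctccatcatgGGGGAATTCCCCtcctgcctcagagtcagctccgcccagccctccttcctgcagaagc

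The same search was made in the RefSeq windows from 250 bases before to 50 after each start site, which were used for 9 of the 10 genes in 11 windows. A kappaB match on either strand was present in 4 of these 11 windows, one each of Tnip1, Tnfaip3, Tnip3 and Cyld, and in 4.51% of all 32851 windows. The AP-1 motif TGANTCA, a palindromic site read on both strands, was present in 1 of the 11, that of Tnfaip3, and in 7.81% of all windows. The matches of the other 3 genes are printed with 6 bases on each side, along the gene's strand, with the match in capitals, to show how alike they are to the Tnip1 site. They lie at chr10:19015413-19015422 and chr10:19015526-19015535 for Tnfaip3, chr6:65590344-65590353 for Tnip3 and chr8:88696873-88696882 for Cyld, and the AP-1 match of Tnfaip3 at chr10:19015540-19015546.
Tnfaip3, 12 bases upstream: tccatcGGAAATCCCCctgttg
Tnfaip3, 125 bases upstream: cacgcgGGGACACCCCggggcg
Tnfaip3, AP-1 match, 136 bases upstream: cccaggTGACTCAcgcggg
Tnip3, 54 bases upstream: catcctGGGAAATCCCagttac
Cyld, 155 bases upstream: ccgagcGGAAAGTCCCttcagc
A match describes the letters of this window only. Of the 4 genes with a kappaB match, Tnip1 had separated groups and the other 3 did not.

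Tnfaip3 (ENSMUSG00000019850, chr10:19000910-19015657, minus strand) encodes A20, the ubiquitin-editing enzyme that terminates signalling from tumour necrosis factor and Toll-like receptors. It stood at 5.46, 5.71 and 16.3 CPM in Ctrl replicates 1, 2 and 3 and at 9.76, 8.28 and 12.1 CPM in Ti replicates 1, 2 and 3. Ctrl replicate 3 was the highest of all 6 libraries, so the groups overlapped, while the other 2 Ctrl libraries lay below every Ti library. The log2 fold change was 0.14 ± 0.47 (edgeR adjusted p = 0.990). Without Ctrl replicate 3 it was 0.85 (unadjusted p = 0.0144, edgeR adjusted p = 0.489), and without Ctrl replicate 1, Ctrl replicate 2 or Ti replicate 3 it was -0.13, -0.11 and -0.016. The direction for Tnfaip3 thus rested on single libraries.

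Tnip2 and Tnip3 encode the other 2 members of the ABIN family, which share with ABIN1 the ability to bind ubiquitin chains. Tnip3 (ENSMUSG00000044162, chr6:65525313-65634040, plus strand) was at 134, 148 and 151 CPM in the Ctrl libraries and at 127, 156 and 224 CPM in the Ti libraries. Ti replicate 3 was high and Ti replicate 1 the lowest of the 6. It had a log2 fold change of 0.22 ± 0.21 (edgeR adjusted p = 0.938), and -0.030 without Ti replicate 3. Tnip2 (ENSMUSG00000059866, chr5:34496087-34513991, minus strand) was at 14.3, 8.73 and 20.2 CPM in Ctrl and at 12.4, 11.1 and 14.8 CPM in Ti, so that all Ti values fell within the Ctrl range. Its log2 fold change was -0.17 ± 0.32 (edgeR adjusted p = 0.971), and 0.16 without Ctrl replicate 3. The TNIP genes therefore did not share a pattern across the 6 libraries. Whether the fold change of Tnip1 differed from those of Tnip2 and Tnip3 was not tested.

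Birc2 and Birc3 encode cIAP1 and cIAP2, RING-type ubiquitin ligases that bind TRAF2, modify RIPK1 and keep the NF-kB-inducing kinase at a low level; the 2 genes are neighbours on chromosome 9. Birc2 (ENSMUSG00000057367, chr9:7818227-7837064, minus strand) was at 38.5, 35.9 and 39.3 CPM in Ctrl and at 36.1, 40.9 and 39.2 CPM in Ti, the most even of the 10 genes. Birc2 had a log2 fold change of 0.032 ± 0.11 (edgeR adjusted p = 0.991). Birc3 (ENSMUSG00000032000, chr9:7848699-7873186, minus strand) was at 20.6, 37.3 and 23.5 CPM in Ctrl and at 19.3, 50.1 and 44.8 CPM in Ti. High and low libraries occurred in both groups, with Ti replicate 1 the lowest of the 6 and Ctrl replicate 2 above the other Ctrl libraries. For Birc3 the log2 fold change was 0.49 ± 0.41 (edgeR adjusted p = 0.914), 0.81 without Ti replicate 1, 0.79 without Ctrl replicate 2 and 0.24 without Ti replicate 2. Of the distinct 50-base words in the annotated transcripts, 7.56% of those of Birc3 and 1.49% of those of Birc2 also occur in another gene. The genes that share them include each other and the processed pseudogene Gm7019. These shared words number 384 for Birc3 and 68 for Birc2, so at most 68 of the Birc3 words can lie in Birc2. Gm7019 itself held 14 to 28 rescaled counts per library, and how the quantification split reads over these copies is not known.

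Traf1 and Traf2 encode adaptors that form mixed trimers and bring the cIAPs to receptor complexes; TRAF2 has a RING domain, which TRAF1 lacks. Traf1 (ENSMUSG00000026875, chr2:34941750-34961772, minus strand) was at 31.7, 30.2 and 49.8 CPM in Ctrl replicates 1, 2 and 3 against 48.3, 40.2 and 65.2 CPM with Ti. The libraries numbered 3 were the highest of each group, and within each number the Ti library was the higher one. Traf1 had a log2 fold change of 0.46 ± 0.27 (edgeR adjusted p = 0.834). It was 0.73 without Ctrl replicate 3 and 0.25 without Ti replicate 3. Traf2 (ENSMUSG00000026942, chr2:25517982-25546940, minus strand) was at 37.3, 31.2 and 19.9 CPM in Ctrl and at 39.4, 24.9 and 30.2 CPM in Ti. Here Ctrl replicate 3 was the lowest library, the reverse of its place for Traf1. The log2 fold change of Traf2 was 0.097 ± 0.28 (edgeR adjusted p = 0.988), -0.12 without Ctrl replicate 3, -0.099 without Ti replicate 1 and 0.30 without Ctrl replicate 1.

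Cyld (ENSMUSG00000036712, chr8:88697028-88751945, plus strand) encodes a deubiquitinase that removes linear and other non-degradative chains from NF-kB signalling proteins. It was at 42.5, 36.1 and 39.0 CPM in Ctrl and at 32.0, 32.8 and 37.1 CPM in Ti. Within each replicate number the Ti library was the lower one, while the groups overlapped because Ti replicate 3 lay above Ctrl replicate 2. The log2 fold change was -0.21 ± 0.13 (edgeR adjusted p = 0.848) and remained negative, from -0.27 to -0.15, with any 1 library left out. Malt1 (ENSMUSG00000032688, chr18:65430938-65479067, plus strand) was at 14.6, 15.2 and 36.6 CPM in Ctrl and at 19.6, 13.5 and 19.0 CPM in Ti. As for Tnfaip3, Ctrl replicate 3 was the highest library. The log2 fold change of Malt1 was -0.35 ± 0.41 (edgeR adjusted p = 0.949), 0.23 without Ctrl replicate 3 and -0.96 on the deposited values without rescaling.

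**Figure D2:**
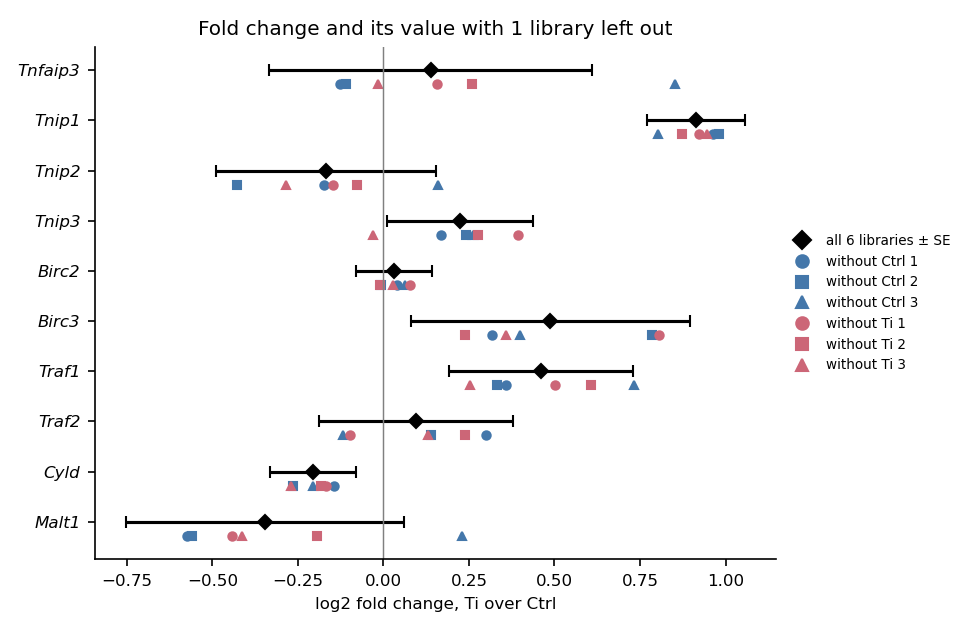
Log2 fold change of Ti over Ctrl for each gene from all 6 libraries (black diamonds, bars ± SE) and with 1 library left out (coloured markers below each diamond). Tnip1 stays between 0.80 and 0.98 in all 6 such fits, while Tnfaip3 runs from -0.13 to 0.85 and Malt1 from -0.57 to 0.23, both with the highest value when Ctrl replicate 3 is left out.

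Because Ctrl replicate 3 set the overlap for Tnfaip3 and Traf1, the count of separated genes was repeated without it, an alternative chosen after seeing the data. Then 3 of the 10 genes had Ti libraries all above the Ctrl ones, Tnfaip3, Tnip1 and Traf1, and 0 had them all below, against 13.9% and 13.2% of all genes. Without both libraries numbered 3, 3 genes were higher without overlap, again Tnfaip3, Tnip1 and Traf1, and 1 lower, Cyld, against 21.2% and 20.5% of all genes. With fewer libraries more genes separate, which is why these background shares are larger than with all 6. The separation of Tnfaip3 and Traf1 was fixed in advance by leaving out the library that made them overlap. These counts are therefore a description and no test of the 10 genes.

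To compare the genes with each other, the deposited value of each transcript was divided by its genomic span, summed per gene and divided by the library's total of such values, a length-normalised level given in parts of 1e+06. On this scale Tnip3 was the most abundant in Ctrl, at 66.0 ± 17.2 (SD, n = 3). Next came Tnip1 (19.5 ± 0.586), Traf1 (19.2 ± 6.77), Birc2 (17.4 ± 2.06), Traf2 (14.8 ± 4.77), Birc3 (13.8 ± 4.0), Cyld (11.6 ± 1.53), Tnip2 (9.52 ± 4.24) and Malt1 (8.64 ± 5.31), each overlapping the next in the range of its Ctrl libraries. Tnfaip3 was the least abundant, at 2.35 ± 1.87, with its highest Ctrl library below the lowest of Malt1. In the Ti libraries Tnip1 averaged 34.4 ± 4.15, Tnip3 77.8 ± 22.0 and Tnfaip3 2.84 ± 0.852 on the same scale. Tnip3 and Tnfaip3 thus stood apart at the ends of the order in Ctrl, while neighbours between them overlapped. Genes further apart in the order could still be separate, as Tnip1 was from Cyld.

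The values of the 10 genes were spread over 80 annotated transcripts, of which 44 passed the filter in a fit over 41599 transcripts. In that fit 0 of the 44 passed an adjusted p of 0.05 by edgeR, against 0.00721% of all transcripts, and 1 had an unadjusted p under 0.05, against 4.29%. At least 10% of a gene's rescaled counts lay in 23 transcripts, 4 of which are annotated as non-coding forms. The Tnip1 signal was carried by long coding transcripts that share nearly the whole locus. The 5 coding transcripts with a span over 50000 bases together held 29.8, 29.4 and 21.3 CPM in Ctrl and 52.6, 58.2 and 50.5 CPM in Ti. The other 7 Tnip1 transcripts together averaged 4.22 ± 0.641 CPM in Ctrl and 4.77 ± 1.06 CPM in Ti (SD, n = 3 per group), so the difference lay in the long forms.

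Which long form of Tnip1 received the value varied by library. Tnip1-205 was at 11.2, 16.5 and 11.1 CPM in Ctrl, 29.8 and 30.6 CPM in Ti replicates 1 and 2, and 0.0042 CPM in Ti replicate 3. Tnip1-201 was at 13.0, 12.9 and 10.2 CPM in Ctrl, 22.7 and 23.9 CPM in Ti replicates 1 and 2, and 0.0056 CPM in Ti replicate 3. Tnip1-204 was at 0 in 5 libraries and at 41.6 CPM in Ti replicate 3. These forms share almost the same ends, at spans of 52130, 52126 and 52121 bases, and assignment between them is an estimate of the quantification, so the gene total is the steadier value. A like exchange occurred for Tnip2 in the libraries numbered 3. Its transcript Tnip2-201 was at 15.4 CPM in Ctrl replicate 3 and 8.71 CPM in Ti replicate 3 and at no more than 0.0727 CPM in the others.

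**Figure D3:**
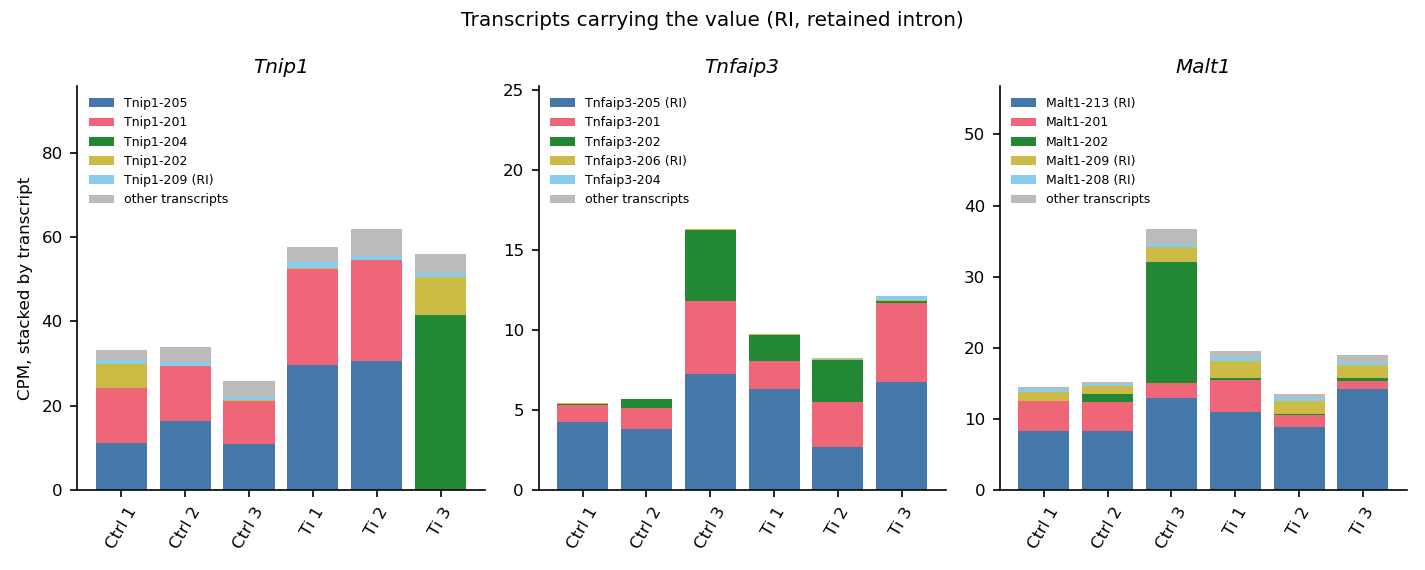
CPM stacked by transcript for Tnip1, Tnfaip3 and Malt1 in each library (linear axis from 0), with the 5 transcripts of the largest share coloured and the rest in grey; RI marks transcripts annotated as retaining an intron. In Ti replicate 3 the Tnip1 value sits in Tnip1-204 (41.6 CPM) and Tnip1-202, and the high Malt1 bar of Ctrl replicate 3 contains 17.0 CPM of Malt1-202.

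For Tnfaip3 and Malt1 most of the value lay in transcripts annotated as retaining an intron. Tnfaip3-205, which retains an intron, held 55.6% of the gene's rescaled counts over the 6 libraries, and Malt1-213, of the same class, 54.5%. Retained-intron forms made up 33.1% to 79.5% of Tnfaip3 and 45.9% to 88.7% of Malt1 per library. By contrast they held 1.5% to 3.2% of Tnip1, 0.7% to 3.3% of Traf1 and 3.5% to 8.6% of Birc2. Ctrl replicate 3 had the largest such share for Tnip3 (41.9%) and Traf2 (46.0%). It had the smallest of all 6 libraries for Malt1 (45.9%) and the smallest of the Ctrl libraries for Tnfaip3 (44.8%). The libraries were made from total RNA, and how far unspliced RNA adds to these shares was not tested.

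Counting protein-coding transcripts alone left Tnip1 alone with separated groups and changed Malt1 most. The CPM of these coding sums were computed over coding transcripts only, so they cannot be set against the CPM given elsewhere. Coding Malt1 was at 6.07, 7.28 and 28.2 CPM in Ctrl and 7.09, 2.58 and 2.12 CPM in Ti, a log2 fold change of -1.81 ± 0.81 (edgeR adjusted p = 0.730). Ctrl replicate 3 was again the high library, through Malt1-202. In CPM over all transcripts, Malt1-202 was at 17.0 there and at no more than 1.17 in the other libraries. Coding Tnfaip3 was at 1.61, 2.69 and 13.3 CPM in Ctrl and 4.89, 8.10 and 7.82 CPM in Ti, with a log2 fold change of 0.25 ± 0.82 (edgeR adjusted p = 0.986). Coding Tnip1 had a log2 fold change of 0.95 ± 0.14 (edgeR adjusted p = 0.161), close to the value over all its transcripts.

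The surrounding pathway was read from 8 lists with 59 genes, of which 58 were tested. By edgeR 0 passed an adjusted p of 0.05 in either direction (lowest 0.101), and 6 higher and 1 lower had an unadjusted p under 0.05, against 6.76% of all genes in either direction. DESeq2 called 4 of the 58, against 1.91% of all genes, and voom 0, against 0.065%. Groups did not overlap for 10 genes with Ti higher and 2 with Ti lower, against 6.63% and 6.71% of all genes, and the median log2 fold change was 0.046, against 0.0053 over all genes.

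Among the MALT1 substrates and CBM genes, Zc3h12a, which encodes the endoribonuclease Regnase-1 that degrades cytokine mRNAs, was at 6.42, 7.56 and 5.97 CPM in Ctrl and 25.2, 19.4 and 21.1 CPM in Ti. Every Ti library was above every Ctrl library. Zc3h12a had a log2 fold change of 1.72 ± 0.18 (edgeR adjusted p = 0.101, DESeq2 adjusted p = 8.81e-15). Its list had 3 of 6 tested genes positive and a median of -0.025, with Card9 at -0.27 (-0.097 without Ctrl replicate 3) and N4bp1 at -0.10 (-0.027 without Ti replicate 2).

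Tab1, a subunit of the TAK1 kinase complex, was the 1 gene of the lists with a negative fold change at an unadjusted p under 0.05. It was at 17.9, 17.6 and 15.6 CPM in Ctrl and 10.7, 6.46 and 7.67 CPM in Ti, so the groups did not overlap. The fold change of Tab1 on the log2 scale was -1.04 ± 0.23 (edgeR adjusted p = 0.355, DESeq2 adjusted p = 0.00538). In the list of TAK1 and IKK genes 4 of 9 were positive, with a median of -0.037. The list of non-canonical NF-kB genes held Tnfrsf1b, a TNF receptor that signals through TRAF2. Tnfrsf1b was at 18.7, 16.3 and 12.5 CPM in Ctrl and 31.0, 28.1 and 44.2 CPM in Ti. Its log2 fold change was 1.12 ± 0.24 (edgeR adjusted p = 0.353, DESeq2 adjusted p = 0.00557), and 4 of the 6 genes of that list were positive, with a median of 0.26.

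Among TRAFs and adaptors outside the 10 genes, 7 of 11 were positive, with a median of 0.098, and 3 had Ti libraries all above the Ctrl ones, against 6.63% of all genes. These were Xiap, a caspase inhibitor and ubiquitin ligase, with a log2 fold change of 0.37 ± 0.12, Traf3ip2 with 0.52 ± 0.26 and Traf5 with 0.49 ± 0.26 (edgeR adjusted p = 0.620, 0.802 and 0.823). The lowest Ti and highest Ctrl libraries were at 192.9 and 170.2 CPM for Xiap and at 3.75 and 3.53 CPM for Traf3ip2. For Traf5 they were nearly tied, at 1.631 and 1.626 CPM. Of the 5 genes for linear ubiquitin chains, 4 were negative, with a median of -0.29. Among these, Otulin (-0.29) was at 0.084 without Ctrl replicate 3, and Rnf31 (-0.50) at 0.059 without Ti replicate 2. The other negative genes stayed negative with any 1 library left out. The positive one was Spata2, which links CYLD to the linear ubiquitin ligase, at 4.39, 4.41 and 2.85 CPM in Ctrl and 5.71, 15.3 and 7.24 CPM in Ti. Its log2 fold change was 1.27 ± 0.42 (edgeR adjusted p = 0.635), and 0.73 without Ti replicate 2. Sharpin and Rbck1, subunits of that ligase, had -0.36 ± 0.22 and -0.11 ± 0.11.

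Of 7 partners of A20 and related deubiquitinases 4 were positive, with a median of 0.074, and Rnf11, Otud7b and Tax1bp1 had 0.16 ± 0.090, 0.23 ± 0.13 and 0.36 ± 0.26. The value of Tax1bp1 was 0.10 without Ctrl replicate 2, at 35.5 CPM against 70.8 and 66.2 CPM in the other Ctrl libraries. Of 7 ubiquitin-conjugating enzymes 5 were positive, with a median of 0.20. Ube2v2, a cofactor of the enzyme that builds non-degradative chains, was at 2.95, 2.54 and 7.0 CPM in Ctrl and 11.7, 15.9 and 11.5 CPM in Ti, a log2 fold change of 1.64 ± 0.43 (edgeR adjusted p = 0.458, DESeq2 adjusted p = 0.0175). Its groups did not overlap, and without Ctrl replicate 3 the value was 2.25. Of 7 death signalling genes 3 were positive, with a median of -0.054, and Mlkl, Ripk3 and Casp8 had 0.50 ± 0.27, -0.24 ± 0.16 and 0.25 ± 0.17. The value of Mlkl was 0.15 without Ti replicate 3, at 37.7 CPM against 21.2 and 20.1 CPM in the other Ti libraries.

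**Figure D4:**
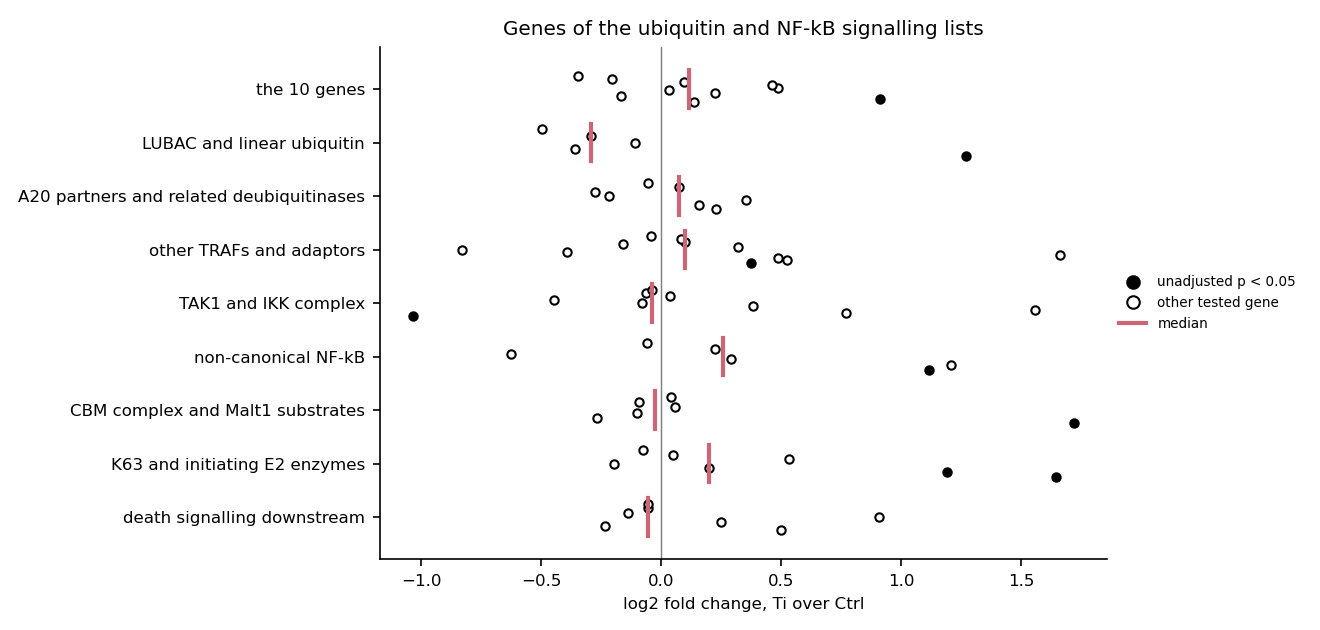
Log2 fold change of Ti over Ctrl for the 10 genes and for the tested genes of the 8 pathway lists, 1 point per gene, filled where the unadjusted edgeR p is under 0.05, with a red bar at each list's median. Tnip1 (0.91) is the filled point of the 10 genes, and Zc3h12a (1.72) and Tab1 (-1.04) are the filled points of their lists.

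Genes whose 6 values ran most like those of a given gene were taken from the 9718 genes with a mean of at least 5 CPM, by the root mean square difference of centred log2(CPM + 0.5) over the 6 libraries. For Tnip1 these were Stk3, Pla2g5, Clec4d, Rpl7l1 and Ehd1, at differences of 0.0947 to 0.135. Clec4d, for example, was at 52.4, 56.7 and 51.8 CPM in Ctrl and 95.5, 112 and 86.7 CPM in Ti. For Tnfaip3 they included Pdgfb, Gm47198, Add1 and Gm37334, at 0.162 to 0.177, and Pdgfb was likewise high in Ctrl replicate 3, at 175 CPM against 83.5 and 81.7 CPM in the other Ctrl libraries. For Birc3 they included Ttc4, 4930430F08Rik, Nufip2 and Pfdn5, at 0.103 to 0.179, and for Traf1 they were Ank2, Ndor1, Plekho2, Ccnd2 and Prune2, at 0.0690 to 0.102. The lists had no gene in common, and likeness over 6 libraries is a description only.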

How the data were processed

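Each of the 6 deposited tables holds 187351 estimated counts, 1 per transcript, as whole numbers; HISAT2, StringTie and the genome build mm9 are listed per the submitters' processing notes, without versions or a counting tool. Of these, 141862 carry identifiers of GENCODE vM21 (GRCm38), whose names and coordinates are used here, and 45489 are assembled transcripts without a gene, 36.9% to 51.2% of the deposited totals, which were left out. Small deposited values were larger for transcripts with long introns (ranked by span relative to exons and divided into 9 classes, nonzero values had a lower quartile of 3 in the first class and 172 in the last), so each value was multiplied by the ratio of its exon length to its genomic span. Rescaled counts were added up per gene and rounded, and are not read numbers.

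The quasi-likelihood test of edgeR 4.0.16 (R 4.3.3, filterByExpr, TMM) was run across all genes and all transcripts, adjusted by Benjamini-Hochberg at 0.05; the standard error is the log2 fold change over the square root of F. DESeq2 1.42.0 and limma 3.58.1 (voom) were alternatives. The edgeR fit was also run on simulated data, whose outcome is not reported here. Plots used matplotlib 3.10.9. The members, lists and rules were chosen with earlier results of these data known: all 10 genes are named, up to 3 genes of each list with the smallest p, transcripts with 10% of a gene's counts and the 5 genes most alike to Tnfaip3, Tnip1, Birc3 and Traf1, of which some are not reported here. No 2 libraries agreed within sampling noise. Same-numbered libraries deviated together from their group means (correlations over genes of 0.115, 0.147 and 0.272, other pairs -0.165 to 0.033). All 3 exceeded 0.1, the rule used here, which is a hint of pairing by number that the labels do not give. The replicate number entered as a block in alternative fits only. Fold changes, standard errors and p-values given without mention of the block come from fits that ignore this pairing. The planned comparison of protein sequences was not run.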

Additional observations from a re-analysis of the deposited data

How the results depend on the processing

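Of 160 values of the 10 genes under other analyses, 144 kept their direction and their side of the threshold, 15 changed sign and 1, Tnip1 by DESeq2, newly passed. With 1 library left out the log2 fold change ran from -0.13 to 0.85 for Tnfaip3, -0.43 to 0.16 for Tnip2, -0.030 to 0.39 for Tnip3, -0.011 to 0.078 for Birc2, -0.12 to 0.30 for Traf2 and -0.57 to 0.23 for Malt1. With voom Tnip2 had 0.0043, Malt1 0.038, Birc3 0.14, Tnip3 0.069, Birc2 0.010 and Tnfaip3 0.54, and without both libraries numbered 3 Tnip2 had 0.041, Traf2 -0.088 and Malt1 0.16. The count of the 10 genes with separated groups was 1, against 13.3% of all genes in either direction. It was 3 without Ctrl replicate 3, where 13.9% of all genes separated with Ti higher and 13.2% with Ti lower. Without both libraries numbered 3 it was 4, where these shares were 21.2% and 20.5%. The number of genes called, 4, was 292 by DESeq2, 10 by voom, 2 with coding transcripts only, 0 without both libraries numbered 3 (1429 at an unadjusted p under 0.05), 0 in the fit with a replicate block (1440 likewise) and 1 to 13 with 1 library left out. The number of transcripts called, 3, was 0 without a filter (2759 unadjusted), 0 with the replicate block (1859 unadjusted) and 0 to 1 with 1 library left out. The block changed no call of the 10 genes; its lowest adjusted p among them was 0.330, for Tnip1, and Traf1 had an unadjusted p of 0.00983 with it. The causes were not tested.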

Other observations

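In several genes of the pathway lists Ti replicate 3 stood apart from the other Ti libraries. This was not particular to Ti replicate 3, since other libraries stood apart in other genes of these lists. Traf3 was at 93.9 CPM in Ti replicate 2, against 8.11 and 11.8 CPM in the other Ti libraries. Ripk1 was at 82.3 CPM in Ctrl replicate 2, against 19.5 and 20.1 CPM in the other Ctrl libraries. Ikbke, an IKK-related kinase, was at 5.31, 4.56 and 11.9 CPM in Ctrl replicates 1, 2 and 3 and at 5.86, 5.73 and 52.3 CPM with Ti. On the log2 scale its fold change was 1.56 ± 0.98 (edgeR adjusted p = 0.850), and -0.32 when Ti replicate 3 was left out. Ube2d2a, a ubiquitin-conjugating enzyme, was at 39.9, 42.7 and 41.8 CPM in Ctrl and at 117, 124 and 42.9 CPM in Ti, so that Ti replicate 3 lay just above the highest Ctrl library. Its log2 fold change was 1.19 ± 0.39 (edgeR adjusted p = 0.620), and 1.54 without Ti replicate 3. Ikbkg, which encodes the regulatory subunit NEMO of the IKK complex, was at 36.2, 35.4 and 15.6 CPM in Ti against 14.7, 16.4 and 20.1 CPM in Ctrl, with a log2 fold change of 0.77 ± 0.34 (edgeR adjusted p = 0.761) and 1.07 without Ti replicate 3. Cd40, a receptor that signals through TRAF proteins, was at 3.58, 2.97 and 9.13 CPM in Ti against 1.88, 1.6 and 3.33 CPM in Ctrl, with a log2 fold change of 1.21 ± 0.53 (edgeR adjusted p = 0.761) and 0.54 without Ti replicate 3. Cflar, which encodes the caspase-8 regulator c-FLIP and was chosen after its values were seen, was at 7.96, 17.8 and 96.4 CPM in Ti against 40.5, 12.6 and 11.8 CPM in Ctrl, with a log2 fold change of 0.91 ± 0.99 (edgeR adjusted p = 0.946) and -0.75 without Ti replicate 3.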
